A study of Homo sapiens with 36 samples.

Results

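IGR37 and 501mel are human melanoma cell lines, and their untreated states were compared here as IGR37 minus 501mel. The members were chosen by label. They are the 3 libraries labelled IGR37 DMSO and the 3 libraries labelled 501mel DMSO, 6 of the 36 libraries of the study. Both lines were grown in RPMI-1640 with fetal serum at raised CO2 and received the solvent DMSO for 48 h, with no siRNA and no inhibitor. The labels name no engineered allele in either line. Each line is a single established line, so a difference between them holds for this pair of lines and not for a class of melanomas. Elsewhere the study gave 20 nM of a control siRNA (siCTR or siCTR_1) or of 1 of 2 siRNAs against SCD (siSCD_1, siSCD_2), or 1 µM of the SCD inhibitor A939372. SCD is stearoyl-CoA desaturase, which makes monounsaturated fatty acids. The labels do not say that the 3 libraries of a group came from separate cultures. The p-values here measure the spread between libraries within a group, shared over all 8 groups fitted together. They do not measure the spread of these 6 libraries alone. Cell line cannot be told apart from any culture or library difference that went with it.

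RNA was measured by QuantSeq Forward, which sequences 1 fragment from the 3′ end of each polyadenylated RNA, so values do not scale with transcript length. The IGR37 DMSO libraries held 5157153, 5072519 and 4654543 reads on genes, against 4738589, 5644098 and 5535116 in the 501mel DMSO libraries. A count of 3 reads, the limit that a count of 0 allows, corresponds to 0.52 to 0.62 CPM (counts scaled to the library total) in these 6 libraries, for counting error only. Values are the deposited log2 CPM, and differences are on that log2 scale with a standard error from limma. A gene is called higher or lower when its adjusted p (limma, Benjamini-Hochberg over 13364 genes) is under 0.05.

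Melanocytes arise from the neural crest and depend on MITF, a basic helix-loop-helix transcription factor that drives pigment genes, survival and part of the cell cycle programme together with SOX10 and PAX3. The pigment is made in melanosomes, lysosome-related organelles in which tyrosinase and its relatives oxidise tyrosine. Melanoma cells occupy a range of states, from pigmented and MITF-rich to neural crest-like or mesenchymal states rich in receptor tyrosine kinases, SOX9 and matrix proteins.

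Before the line comparison, the labels of the control libraries were checked by setting the lines beside each other, and the libraries labelled IGR37 DMSO and IGR37 siCTR stood the other way round from 501mel. SMIM15, a small membrane protein gene, had log2 values of 4.33, 4.57 and 4.33 in the libraries labelled IGR37 DMSO and 6.28, 6.08 and 6.49 in 501mel DMSO. In the libraries labelled siCTR the order was turned round, with 5.74, 5.55 and 5.67 in IGR37 and 4.05, 4.22 and 4.23 in 501mel. The separate siCTR_1 libraries were normalised apart from these, so their levels are not strictly on the same scale. There the means were 4.61 in IGR37 and 4.08 in 501mel, against 5.69 and 5.82 in the siSCD_1 libraries normalised with them. With the inhibitor SMIM15 was high in both lines, at 5.97 in IGR37 and 6.14 in 501mel.

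NAA50, an N-terminal acetyltransferase gene, and HEATR1, a ribosome biogenesis factor gene, showed the same arrangement. NAA50 averaged 6.79 in the libraries labelled IGR37 DMSO and 7.95 in 501mel DMSO, against 7.86 in those labelled IGR37 siCTR and 6.37 in 501mel siCTR. HEATR1 averaged 5.11 in IGR37 DMSO and 6.06 in 501mel DMSO, and 6.12 in IGR37 siCTR and 4.68 in 501mel siCTR. All 3 genes were among 24 genes with a mean log2 value of at least 5 that were lower at least 2-fold in 501mel siCTR than in 501mel DMSO, by a median of -1.21. In IGR37, 23 of these 24 genes differed in the other direction between the libraries labelled siCTR and DMSO, with a median of 0.62, 19 of them called higher and 1 called lower (6.46% and 8.99% of all genes). All 12 genes that were higher at least 2-fold in 501mel siCTR, by a median of 1.11, had a negative difference in IGR37, with a median of -0.54 and 6 called. Among the other genes of the 24 whose group levels were examined, only UBE2G2 followed the arrangement of the 3 genes shown, within the first table. SETD7, GNPNAT1, ZBTB43, TDRD7, SNAI2 and CHCHD6 did not. SETD7 averaged 4.61 in the libraries labelled IGR37 siCTR, near 4.47 in 501mel siCTR and below 6.21 in 501mel DMSO. GNPNAT1 averaged 5.06 in IGR37 siCTR, below 6.50 in 501mel DMSO, and ZBTB43 averaged 4.56, below 6.30. SNAI2 averaged 7.12 in IGR37 DMSO, above 5.58 in 501mel DMSO. UBE2G2 averaged 7.44 in IGR37 and 7.44 in 501mel in the separately normalised siCTR_1 libraries, against 6.15 in 501mel siCTR.

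**Figure D1:**
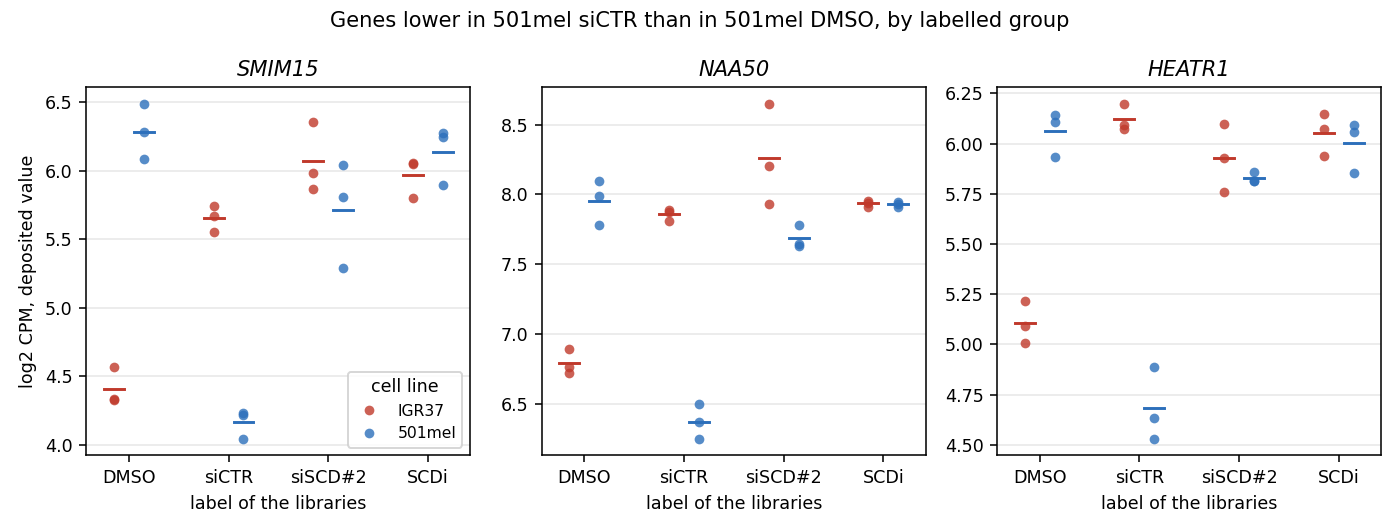
Deposited log2 CPM (vertical axes) of SMIM15, NAA50 and HEATR1 in the 24 libraries of the first table, by label (horizontal axes), with 1 point per library, IGR37 in red and 501mel in blue, and a bar at each mean. The libraries labelled IGR37 DMSO sit low with 501mel siCTR, and those labelled IGR37 siCTR sit high with 501mel DMSO.

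The inhibitor libraries gave a further comparison for the 24 genes, since they share the solvent. The median difference of inhibitor minus DMSO was 0.79 in IGR37 under the labels as given and 0.0097 in 501mel, while inhibitor minus the libraries labelled siCTR was 0.19 in IGR37. Whether the labels of the IGR37 DMSO and siCTR libraries were exchanged was not tested by any independent marker of treatment, and the labels are kept below. The main results are therefore also given with the libraries labelled IGR37 siCTR in place of those labelled IGR37 DMSO, against the same 501mel DMSO libraries. That second value is called the exchanged difference, and it shares the 501mel libraries with the first. The separation of the cell lines was also counted over more libraries, for genes called at least 8-fold with no overlap between the DMSO libraries. Of 811 such genes higher in IGR37, 575 (70.9%) did not overlap between the lines over all 24 libraries of the first table. Of 405 such genes called lower, 312 (77.0%) did not. The 24 libraries include the DMSO libraries that chose the genes, so these shares are partly set by the choice. The 12 libraries of the second table took no part in it. There, 634 of 746 higher genes (85.0%) and 283 of 330 lower genes (85.8%) did not overlap between the lines. The share for all genes is not given, so line identity was not tested against a background.

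The lines differed in most of what was measured. Of 13364 genes, 8126 (60.8%) were called, 4158 (31.1%) higher and 3968 (29.7%) lower in IGR37, with a median difference of 0.017. These shares are the background for every list count below. At least 2-fold differences were called for 2290 genes (17.1%) higher and 1666 (12.5%) lower, and at least 8-fold differences for 814 (6.09%) higher and 410 (3.07%) lower. The 3 IGR37 libraries did not overlap the 3 of 501mel for 9102 genes (68.1%). The exchanged comparison called 8428 genes (63.1%), 4262 (31.9%) higher and 4166 (31.2%) lower. No read was found in any of the 3 501mel libraries for 262 genes and in none of the 3 IGR37 libraries for 118 genes. All 9 melanocytic markers were measured, with a summed level of 5767 to 5924 CPM in the IGR37 libraries and 5626 to 5704 CPM in the 501mel libraries.

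Markers of other cell types were mostly outside the table or low. Of 17 fibroblast markers, 9 were measured, with a summed 92.4 to 93.7 CPM in IGR37 and 25.3 to 28.5 CPM in 501mel, and of 23 blood and endothelial markers 4 were measured, at 11.4 to 17.9 CPM in IGR37 and 51.6 to 65.7 CPM in 501mel. Of these 4, 3 were called higher in IGR37 and 1, CD68, was called lower. Of 25 epithelial markers, 7 were measured, at 306 to 315 CPM in IGR37 and 346 to 377 CPM in 501mel. The fibroblast markers FAP and LUM are also made by some melanoma cells, and the part of other cells in these values was not tested.

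MITF and SOX10 stood close together in the lines under DMSO, while PAX3 did not. MITF (chr3:69739435-69968337, hg38, as all gene positions here) had log2 values of 9.02, 9.12 and 9.16 in IGR37 and 9.25, 9.22 and 9.14 in 501mel. The groups overlapped, and the difference of -0.10 ± 0.08 was not called (adjusted p = 0.276, exchanged difference 0.18). SOX10 (chr22:37970686-37987422), which activates MITF, had 7.08, 7.15 and 7.23 in IGR37 and 7.16, 7.38 and 7.21 in 501mel, a difference of -0.10 ± 0.10 that was not called either (adjusted p = 0.39, exchanged 0.11). PAX3, the paired-box factor upstream of MITF, was lower in IGR37, at 4.99, 4.63 and 4.73 against 5.36, 5.35 and 5.27 in 501mel, with no overlap and a difference of -0.54 ± 0.15 (adjusted p = 0.00307, exchanged -0.95). With the libraries scaled on the spike-in RNAs the PAX3 difference was -0.47 and was no longer called.

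Other lineage regulators differed widely. Of 24 measured regulators, 11 were higher and 6 lower in IGR37, against 8 higher and 9 lower in the exchanged comparison. FOXD3, a neural crest factor that holds back melanocyte fate, had 319 reads in IGR37 and 2 in 501mel, a ratio of 161 (95% counting interval 44.1 to 1331). MSX2, a homeobox factor of the neural crest and skull, had 133 reads in IGR37 and 1 in 501mel, a ratio of 134 (23.6 to 5326). Few reads in 501mel leave both ratios wide, but all 3 IGR37 libraries lay above all 3 of 501mel for each.

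TFAP2C, an AP-2 factor of the neural crest, was higher in IGR37 by 4.05 ± 0.17 (exchanged 2.91), and IRF4, which acts with MITF on the tyrosinase enhancer, by 2.49 ± 0.14 (exchanged 1.82). In the opposite direction, KIT (chr4:54657918-54740715), the receptor for stem cell factor that melanoblasts need to survive, had log2 values of 3.62, 3.94 and 4.08 in IGR37 and 7.88, 7.90 and 8.01 in 501mel. The groups were far apart, with a difference of -4.05 ± 0.15 (adjusted p = 3.26e-17, exchanged -4.85). SOX6 was lower at -1.73 ± 0.14 in IGR37, MC1R, the melanocortin receptor that switches melanocytes to brown-black pigment, at -1.49 ± 0.13, and LEF1, a nuclear partner of beta-catenin, at -0.58 ± 0.14. All 3 were also lower in the exchanged comparison, at -2.21 for SOX6, -2.00 for MC1R and -1.48 for LEF1. The call of LEF1 was lost with spike-in scaling, at -0.50.

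The pigment genes were split evenly. All 40 listed melanosome and pigment genes were measured, and 14 were higher and 14 lower in IGR37 (15 and 14 in the exchanged comparison, 13 and 9 with spike-in scaling). TYR, tyrosinase itself, had 7.97, 7.99 and 7.97 in IGR37 and 8.37, 8.45 and 8.36 in 501mel, a difference of -0.42 ± 0.09 with no overlap (exchanged -0.48). PMEL, which forms the melanosome fibrils, was also lower, at -0.37 ± 0.08, but its exchanged difference was 0.10 and not called. Spike-in scaling gave -0.34 for TYR and -0.30 for PMEL, and neither was then called. TYRP1, which stabilises tyrosinase, differed at -0.14 ± 0.07 (adjusted p = 0.0957) under the labels, was called lower at -0.20 with median centring and was called higher in the exchanged comparison, at 0.27. MLANA, the MART-1 antigen, differed by 0.18 ± 0.10 (adjusted p = 0.132, exchanged 0.19).

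DCT, the dopachrome tautomerase that acts after tyrosinase, was higher in IGR37, with 10.23, 10.10 and 10.02 against 8.36, 8.59 and 8.49 in 501mel, a difference of 1.64 ± 0.11 (exchanged 1.81). OCA2, a melanosomal membrane protein that affects melanosome pH, was higher by 3.49 ± 0.14 and GMPR, guanosine monophosphate reductase, by 6.19 ± 0.28. HPS1, a subunit of a complex needed for melanosome formation, was higher by 1.83 in IGR37, while HPS4, its partner in that complex, was lower at -1.35. SLC45A2, a melanosome transporter, was lower at 9.19, 9.05 and 9.24 in IGR37 against 10.55, 10.66 and 10.56 in 501mel, a difference of -1.43 ± 0.09 (exchanged -1.18). The largest pigment difference was GPR143 (chrX:9725346-9786297), the melanosomal receptor mutated in ocular albinism, at 0.39, 0.74 and 0.73 in IGR37 against 7.79, 7.75 and 7.58 in 501mel. It had 24 reads in IGR37 and 3370 in 501mel, a difference of -7.09 ± 0.31 (adjusted p = 7.7e-16, exchanged -6.96).

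**Figure D2:**
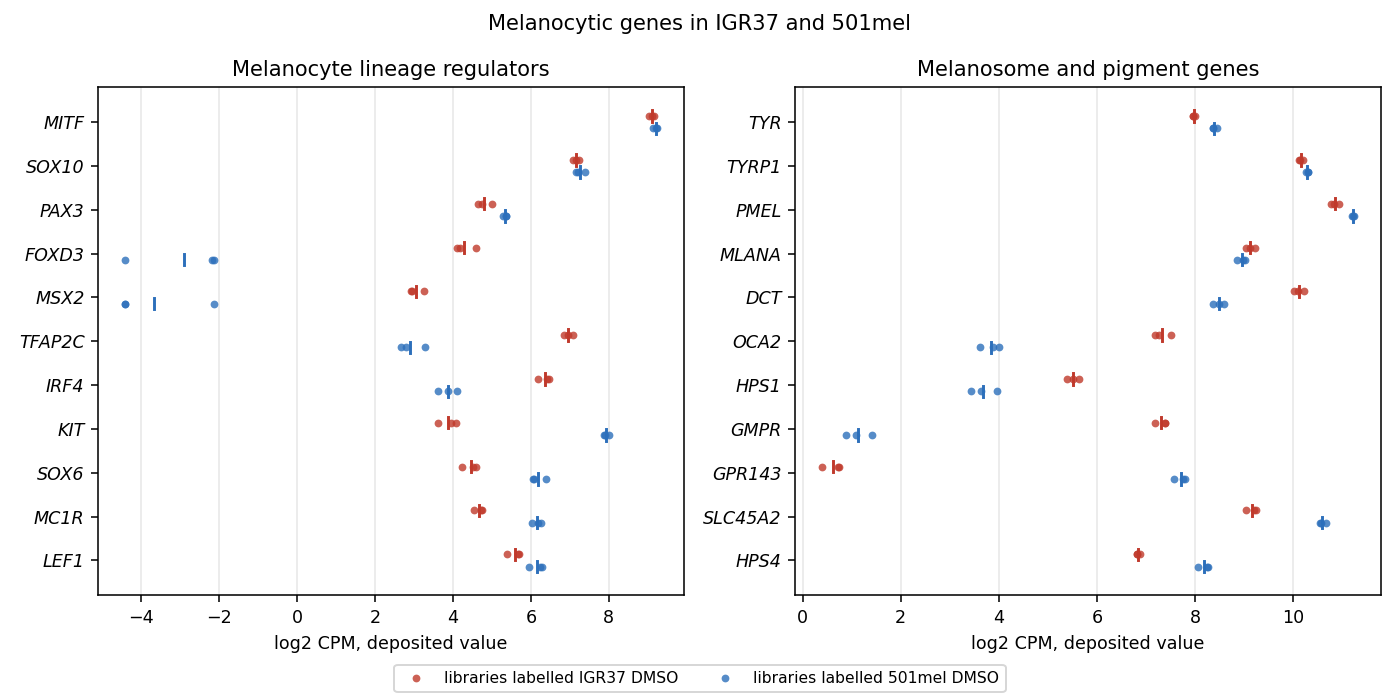
Deposited log2 CPM (horizontal axes) of 11 lineage regulators and 11 pigment genes in the 3 libraries labelled IGR37 DMSO (red, upper row of each gene) and the 3 labelled 501mel DMSO (blue, lower row), with a bar at each mean. MITF and SOX10 coincide in the lines, while FOXD3, MSX2, KIT and GPR143 lie apart.

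The 3 lineage and pigment genes with the largest called difference in each direction were FOXD3, MSX2 and GMPR on the higher side and GPR143, KIT and SOX6 on the lower side. The promoters of 4 of these 6 are printed to show what sequence stands before genes that differ this much between 2 MITF-expressing lines. MITF binds E-box words. The words searched were the palindrome CACGTG, and a second word that reads CATGTG on one strand and therefore reads CACATG on its complement, so that both strands were covered. Each window runs from 250 bases before to 50 bases after the RefSeq start (GRCh38.p14), and capitals mark those words. The positions are chr1:63322317-63322616 on the plus strand for FOXD3, chr5:174724332-174724631 on the plus strand for MSX2, chrX:9765798-9766097 on the minus strand for GPR143 and chr4:54657707-54658006 on the plus strand for KIT.
FOXD3: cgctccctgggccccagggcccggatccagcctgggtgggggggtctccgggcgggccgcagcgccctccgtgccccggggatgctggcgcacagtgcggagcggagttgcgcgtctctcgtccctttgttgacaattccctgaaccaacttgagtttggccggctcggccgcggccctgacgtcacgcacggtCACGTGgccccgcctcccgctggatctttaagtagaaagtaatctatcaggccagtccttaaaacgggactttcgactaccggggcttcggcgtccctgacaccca
MSX2: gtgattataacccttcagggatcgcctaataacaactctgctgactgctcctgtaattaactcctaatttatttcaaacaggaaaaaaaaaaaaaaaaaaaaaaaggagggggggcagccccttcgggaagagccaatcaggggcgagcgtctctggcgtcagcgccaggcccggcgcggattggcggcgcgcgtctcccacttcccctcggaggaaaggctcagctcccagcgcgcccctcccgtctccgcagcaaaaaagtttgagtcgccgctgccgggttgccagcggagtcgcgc
GPR143: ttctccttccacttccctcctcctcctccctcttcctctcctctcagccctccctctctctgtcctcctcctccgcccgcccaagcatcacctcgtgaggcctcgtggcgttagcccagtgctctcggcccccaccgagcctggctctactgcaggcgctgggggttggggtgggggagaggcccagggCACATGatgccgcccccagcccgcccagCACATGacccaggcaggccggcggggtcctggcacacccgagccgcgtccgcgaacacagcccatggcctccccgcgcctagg
KIT: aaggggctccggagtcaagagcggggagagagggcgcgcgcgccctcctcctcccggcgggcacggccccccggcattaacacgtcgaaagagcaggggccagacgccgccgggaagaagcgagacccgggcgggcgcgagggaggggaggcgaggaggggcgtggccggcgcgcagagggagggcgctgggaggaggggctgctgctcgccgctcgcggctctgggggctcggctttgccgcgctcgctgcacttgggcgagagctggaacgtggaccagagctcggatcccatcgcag
FOXD3 held 1 CACGTG, whose first base is at -56 from the start, and GPR143 held 2 CACATG, at -61 and -33. No such word was found in these windows of MSX2, KIT, GMPR or SOX6. Only the first listed start of each gene was searched, here and in the shares below, and SOX6 has 5 listed starts. A word of this kind occurred in 17.9% of all 27305 promoters of the same length and in 16.4% of the 9957 genes tested that had a window. Among genes called at least 2-fold it occurred in 15.6% of 1597 higher and 18.0% of 1230 lower in IGR37.

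GPR143 lies beside 4 other genes that were nearly silent in IGR37. In order along the short arm of the X chromosome (chrX:8169944-9949443), VCX2 had 0 reads in IGR37 and 17 in 501mel, VCX3B 0 and 102, TBL1X 6 and 483, GPR143 24 and 3370, and SHROOM2 0 and 600. SHROOM2, an actin-binding protein, was thus at least 199-fold lower in IGR37, with the 3-read floor taken over the group. VCX3B was at least 33.8-fold lower, and TBL1X, a subunit of the NCoR corepressor complex, was lower at -7.08 ± 0.74. The measured neighbours on either side were higher in IGR37, PNPLA4 by 1.11 ± 0.18 and WWC3 by 2.76 ± 0.20, so the low stretch ended at both.

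The median of the 5 genes was -7.08 under the labels, -6.96 in the exchanged comparison, -6.80 between the siCTR libraries and, for the 4 of them in the second table, -8.44 between the siCTR_1 libraries. VCX2 and VCX3B have near-identical copies, so their reads are uncertain, and the gene models of TBL1X and GPR143 overlap on opposite strands. This stretch was noticed first, and runs of at least 3 neighbouring measured genes with a called difference of at least 8-fold in 1 direction were then listed over the 12570 genes placed on chromosomes. There were 17 runs higher and 4 lower in IGR37, among 772 single genes higher and 382 lower by that measure. The other lower runs were UGT2B7, HTN3, HTN1 and MUC7 on chromosome 4, HBE1 with 2 olfactory receptor genes on chromosome 11, and PASD1, MAGEA4 and MAGEA10 on the long arm of X.

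Several higher runs joined genes of 1 family or of adjacent regulators. They included the interferon-induced GTPase genes GBP3, GBP1 and GBP2 on chromosome 1, the homeobox genes IRX2 and IRX1 with C5orf38 on chromosome 5, and COL6A1 and COL6A2, the genes of 2 collagen VI chains, with PCBP3 and SPATC1L on chromosome 21. SOX9, a neural crest and cartilage factor, formed a run on chromosome 17 with the noncoding genes LINC01152 and LINC00511. No copy number or chromatin was measured, so the cause of such runs was not tested. The listing has no test, since it was made after the values had been seen.

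The largest differences across the genome held genes of many kinds. They were taken among named protein-coding genes with no overlap and a mean log2 value of at least 5 in the higher line. CRMP1, a neuronal collapsin response mediator, had 965 reads in IGR37 and 4 in 501mel, with log2 values of 5.88, 5.79 and 6.07 in IGR37. SERPINB1, an inhibitor of neutrophil proteases, had 664 reads in IGR37 and 2 in 501mel, a ratio of 334 (95% counting interval 92.1 to 2765). CD9, a tetraspanin of the cell surface, had 9.28, 9.28 and 8.98 in IGR37 and 1.92, 1.74 and 1.71 in 501mel, a difference of 7.39 ± 0.35. S100A6, a calcium-binding protein, had 10.31, 10.29 and 10.33 in IGR37 and 3.23, 3.84 and 3.23 in 501mel, a difference of 6.88 ± 0.29. The lines did not overlap for any of these, and the exchanged differences of CRMP1, SERPINB1, CD9 and S100A6 were 9.15, 8.81, 7.18 and 6.90.

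The largest negative difference among such genes belonged to PNLDC1, a 3′ exonuclease that trims piRNA precursors in germ cells. It had 2 reads in IGR37 and 1920 in 501mel. Its level in 501mel was 954 times that in IGR37 (95% counting interval 264 to 7882). ITM2A, a membrane protein of cartilage and muscle precursors, had 5 reads in IGR37 and 2057 in 501mel, and MGST2, a microsomal glutathione transferase, 12 and 2522. CDH3, P-cadherin, had -0.08, -1.30 and -1.16 in IGR37 and 6.60, 6.85 and 6.68 in 501mel, a difference of -7.55 ± 0.43. CDKN2A, which encodes the p16 and ARF tumour suppressors, had -0.08, 0.58 and -2.02 in IGR37 and 7.02, 7.06 and 6.87 in 501mel, or 14 reads against 2047.

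The genes beside CDKN2A (chr9:21967753-21995301) did not share its level. The difference was -7.49 ± 0.40 for CDKN2A, -1.01 ± 0.10 for MTAP on one side and 0.05 ± 0.19 (adjusted p = 0.843) for CDKN2B on the other, while the exchanged differences were -7.17, -1.15 and -2.04.

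**Figure D3:**
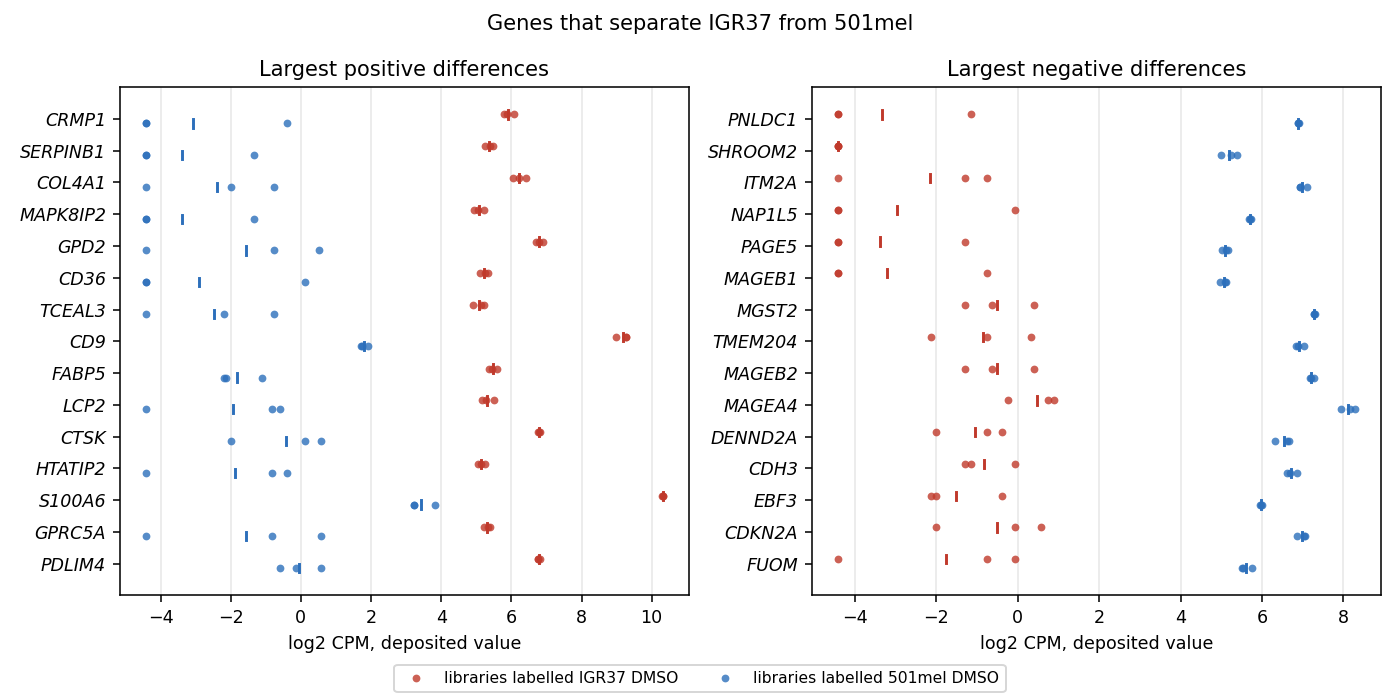
Deposited log2 CPM (horizontal axes) of 15 genes with large positive and 15 with large negative called differences. They are the largest each way among named protein-coding genes with a mean log2 value of at least 5 in the higher line. Only genes whose lines did not overlap were taken. Points show the 3 libraries labelled IGR37 DMSO (red, upper row) and the 3 labelled 501mel DMSO (blue, lower row), with a bar at each mean. The lowest points, at -4.43, are libraries with 0 reads.

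Targets of MITF outside the pigment machinery did not move as a block. Of 27 measured, 10 were higher and 11 lower in IGR37 (8 and 14 exchanged, 12 and 11 with quantile normalisation). LGALS3, the sugar-binding protein galectin 3, had 8.58, 8.74 and 8.57 in IGR37 and 7.58, 7.57 and 7.69 in 501mel, a difference of 1.02 ± 0.08. Other members of this list, such as CTSK, BCL2A1, MET and PPARGC1A, are given with the groups they also belong to.

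Matrix genes were more often called higher than lower in IGR37. Of 46 measured collagens, laminins and matrix proteins, 25 were higher and 9 lower in IGR37, with a median of 1.52 against 0.017 for all genes (23, 9 and 0.91 in the exchanged comparison). COL4A1, a basement membrane collagen chain, had 6.21, 6.41 and 6.05 in IGR37, or 1210 reads against 4 in 501mel. COL4A2, its partner chain and neighbour on chromosome 13, had 166 reads in IGR37 against 4. COL6A1 had 6.77, 6.72 and 6.85 in IGR37 and 2.14, 2.94 and 2.06 in 501mel, a difference of 4.40 ± 0.20. Lower in IGR37 were COL5A3, at -1.93, and the laminin chains LAMA4, at -0.91, and LAMC1, at -0.62. LAMA4 was no longer called without IGR37 replicate 1, at -0.82, or with spike-in scaling, at -0.84.

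Among 39 matrix proteases and inhibitors, 20 were higher and 9 lower (20 and 9 exchanged), with a median of 0.76 under the labels and 0.06 between the siCTR libraries. CTSK, a collagen-cleaving cathepsin and MITF target, had 1774 reads in IGR37 and 15 in 501mel. TIMP3, a matrix-bound inhibitor of metalloproteinases, had 8.50, 8.33 and 8.30 in IGR37 and 2.20, 1.88 and 1.54 in 501mel, a difference of 6.50 ± 0.27. CTSD, the lysosomal aspartic protease, was higher by 2.95 ± 0.15, and SERPINF1, the anti-angiogenic factor PEDF, was lower at -2.25.

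Integrins counted 10 higher and 4 lower of 18 (9 and 5 exchanged). ITGB8, the chain that activates latent TGF-beta, was higher by 4.01 ± 0.12, and ITGAV, its alpha partner, was lower at -0.61. S100 proteins and annexins counted 10 higher and 3 lower of 18 (13 and 4 exchanged), among them S100B, a melanoma serum marker, with 7.72, 7.68 and 7.69 in IGR37 and 5.21, 5.20 and 5.18 in 501mel. Cadherins and adhesion molecules were split, with 17 higher and 14 lower of 37 (16 and 15 exchanged). CDH2, N-cadherin, had 526 reads in IGR37 and 5 in 501mel, and CD44, the hyaluronan receptor, was higher by 6.26 ± 0.27. MCAM, the melanoma adhesion molecule CD146, was lower at -4.26 ± 0.48, as was DSG2, a desmosomal cadherin, with 15 reads in IGR37 and 306 in 501mel.

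Genes of the neural crest-like and dedifferentiated states were more often higher than lower in IGR37. Of 34 measured, 21 were higher and 9 lower, with a median of 1.60, against 15 higher, 10 lower and a median of 0.80 in the exchanged comparison. Between the siCTR libraries the median of this list was -0.05. SOX9 had 78, 72 and 55 reads in the IGR37 libraries and 0 in each 501mel library, so it was at least 68.8-fold higher. L1CAM, a neural adhesion molecule, had 486 reads in IGR37 and 11 in 501mel. NGFR, the nerve growth factor receptor that marks neural crest-like melanoma cells, had 32 reads in IGR37 and 3 in 501mel, and its exchanged difference of 1.58 was not called.

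Other genes of the same list went the other way. SNAI1, which drives epithelial-mesenchymal transition, had 3 reads in IGR37 and 287 in 501mel, while its relative SNAI2 was higher by 1.53 ± 0.14. CYR61 and CTGF, secreted matricellular targets of YAP, were lower at -2.96 and -2.54. AXL, the receptor often opposed to MITF, was at 6 reads in IGR37 and 14 in 501mel, too few for a call (adjusted p = 0.223). The exchanged comparison called it lower.

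Receptor tyrosine kinases were divided, with 13 higher and 14 lower of 33 (13 and 13 exchanged, 13 and 12 with spike-in scaling). DDR1, a collagen receptor, was higher by 4.82 ± 0.28 and ERBB2 by 4.15 ± 0.28. MET, the receptor for hepatocyte growth factor and an MITF target, was lower, at 5.72, 5.60 and 5.65 in IGR37 against 7.72, 7.74 and 7.67 in 501mel, a difference of -2.06 ± 0.08. Growth factors and chemokines counted 24 higher and 14 lower of 55 under the labels and 18 and 19 in the exchanged comparison, so their balance rested on which IGR37 libraries were used. TGFA, an EGF receptor ligand, had 202 reads in IGR37 and 2 in 501mel, and CSF1, the macrophage growth factor, 196 and 8.

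Signalling pathway genes were called in both directions, as all genes were (31.1% higher and 29.7% lower). For MAPK pathway output, 10 of 36 genes were higher and 13 lower (10 and 18 exchanged), 63.9% called against 60.8% of all genes. DUSP4, a phosphatase induced by ERK, was higher by 1.33 ± 0.08, and EGR3 and FOSL1, immediate early factors, by 3.47 ± 0.33 and 2.89 ± 0.34. DUSP6, another ERK phosphatase, was lower at -1.62 ± 0.12, EGR1 at -1.73 ± 0.18 and CCND1, cyclin D1, at -1.63 ± 0.18. Their exchanged differences were larger, at -2.89, -3.04 and -2.89.

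WNT pathway genes counted 14 higher and 16 lower of 43 (16 and 16 exchanged, 13 and 11 with spike-in scaling). The members named next are those with the largest negative differences. AXIN2, a feedback target of beta-catenin, had 1.55, 1.36 and 0.73 in IGR37 and 5.09, 5.26 and 5.12 in 501mel, a difference of -3.94 ± 0.22. APCDD1, a WNT inhibitor at the membrane, was lower at -6.78 ± 0.30, RNF43, which removes Frizzled receptors, had 6 reads in IGR37 and 161 in 501mel, and NKD1 was lower at -3.09. CTNNB1, beta-catenin itself, was higher in IGR37 by 0.54 ± 0.07. The exchanged differences of AXIN2, APCDD1 and CTNNB1 were -3.70, -6.73 and 0.75.

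NOTCH pathway genes counted 7 higher and 11 lower of 26 (8 and 10 exchanged). JAG1, a NOTCH ligand, was lower at -2.87 ± 0.10, HEY1, a target repressor, at -3.16 ± 0.11, and the receptor NOTCH2 at -2.32, whereas NOTCH1 was higher by 0.80. Without 501mel replicate 1 or IGR37 replicate 1 the NOTCH1 difference was 0.57 or 0.68 and was not called. TGF-beta and BMP genes counted 12 higher and 12 lower of 40 under the labels, 9 and 14 exchanged, 10 and 15 with quantile normalisation and 12 and 7 with spike-in scaling. Under the labels 60% of the TGF-beta and BMP genes were called, near the 60.8% of all genes. Their median was -0.12 under the labels and -0.61 between the siCTR libraries. SMAD3 was higher by 2.26 ± 0.16 and TGFBR2 by 2.02, and the inhibitor FST lower at -2.52. YAP-TEAD genes counted 12 higher and 11 lower of 33 (8 and 15 exchanged, 10 and 12 with quantile normalisation). TEAD2 was higher by 3.33 ± 0.16, and WWTR1, the YAP relative TAZ, by 0.85, although its exchanged difference was -0.28 and called lower.

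Single developmental identity genes lay far apart in the lines. HOX genes counted 9 higher and 9 lower of 29 (10 and 9 exchanged, 8 and 11 with quantile normalisation). That is 62.1% called, near the 60.8% of all genes. At least 2-fold differences were called for 51.7% of the HOX genes, against 29.6% of all genes. HOXB2 had 343 reads in IGR37 and 9 in 501mel, and HOXA10 had 3 and 231. IRX2 had 5.10, 5.25 and 5.19 in IGR37, or 581 reads against 9 in 501mel, and EBF3, a neural and mesenchymal factor, had 6 reads in IGR37 against 1017. TBX3, a T-box repressor, was lower at -1.78 ± 0.15 and FOXC1 at -1.73.

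Cancer-testis antigens were mostly on the 501mel side. They are germ cell proteins, many from the X chromosome, that tumours re-express. Of 90 listed genes, 32 were measured, and 6 were higher and 20 lower in IGR37, with a median of -1.14 (7, 19 and -2.51 exchanged). MAGEA4 had 0.74, 0.89 and -0.23 in IGR37 and 8.15, 7.93 and 8.29 in 501mel, a difference of -7.66 ± 0.41. MAGEA11 had 0 reads in IGR37 and 283 in 501mel, at least 93.7-fold lower in IGR37, and MAGEB2 and its neighbour MAGEB1 had 12 and 3 reads in IGR37 against 2391 and 540 in 501mel. MAGEC2 and SSX1 were the reverse, higher in IGR37 by 4.79 and 3.05. Reads of MAGE and SSX genes can be split between near-identical copies, so single members are uncertain.

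Antigen presentation genes were more often called higher than lower in IGR37. Of 24 measured MHC class I and processing genes, 14 were higher and 3 lower, with a median of 0.67 (16, 3 and 0.80 exchanged). B2M, the light chain shared by all class I molecules, had 10.53, 10.78 and 10.62 in IGR37 and 9.23, 9.15 and 9.16 in 501mel, a difference of 1.46 ± 0.08. HLA-B was higher by 3.46 ± 0.14, but it is counted on a polymorphic locus with similar relatives and so is uncertain. NLRC5, the transactivator of class I genes, was higher by 3.23 ± 0.44, and the immunoproteasome subunits PSMB8 and PSMB9 by 2.53 ± 0.18 and 2.31 ± 0.29. TAP2, a chain of the peptide transporter encoded beside them, was lower at -1.57 ± 0.10.

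Interferon response genes counted 29 higher and 12 lower of 63, with a median of 0.68 (27, 12 and 0.55 exchanged, and a median of 0.04 between the siCTR libraries). TRIM14, an adaptor of antiviral signalling, had 164 reads in IGR37 and 0 in 501mel, at least 55.0-fold higher. HERC5, the ISG15 ligase, was lower at -3.84 ± 0.28. Among NF-kB and inflammatory genes, 14 were higher and 13 lower of 39 (9 and 14 exchanged, 13 and 15 with quantile normalisation). CCL20, a chemokine, had 246 reads in IGR37 and 6 in 501mel, while CD40, a TNF receptor, had 2 and 426, and ICAM1 was lower at -2.99 ± 0.44. The inflammasome genes PYCARD and CASP1 were higher by 6.38 ± 0.25 and 5.40 ± 0.46.

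SCD (chr10:100347124-100364834), the enzyme the study targets, was close in the untreated lines. It had 9.77, 9.73 and 9.72 in IGR37 and 9.47, 9.33 and 9.50 in 501mel, with no overlap, but the difference of 0.31 ± 0.16 was not called (adjusted p = 0.0962). SCD was called higher at 0.31 when only the 6 DMSO libraries were fitted, and with voom, and at 0.39 with quantile normalisation. The exchanged difference of 0.69 was called (adjusted p = 0.000494). The related desaturase SCD5 differed at -0.07 and was not called.

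Around SCD, genes of lipid supply were more often higher in IGR37. For fatty acid synthesis and desaturation, 20 of 41 genes were higher and 9 lower, with a median of 0.45 (23, 10 and 0.56 exchanged). ACSS1, which makes acetyl-CoA from acetate in mitochondria, had 7.43, 7.41 and 7.47 in IGR37 and 0.58, 1.95 and 1.35 in 501mel, a difference of 6.14 ± 0.25. ME1, the cytosolic malic enzyme that supplies NADPH, was higher by 2.61. ELOVL6, which elongates palmitate, was lower at -1.60 and ACSL1, an acyl-CoA synthetase, at -1.22.

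Uptake, storage and oxidation counted 32 higher and 11 lower of 56, with a median of 0.68 (31, 11 and 0.51 exchanged). CD36, the fatty acid translocase, had 604 reads in IGR37 and 6 in 501mel, and FABP5, a fatty acid binding protein, 714 and 4. SLC27A3, a fatty acid transport protein, had 9.35, 9.14 and 9.36 in IGR37 and 4.69, 4.80 and 4.28 in 501mel, a difference of 4.70 ± 0.16. LIPE, hormone-sensitive lipase, had 226 reads in IGR37 and 4 in 501mel. PLIN2, the coat protein of lipid droplets, was lower at -3.10 ± 0.39, and PPARGC1A, the mitochondrial coactivator under MITF, at -1.92. PDK4, which diverts cells from glucose to fat oxidation and is counted below with hypoxia and glycolysis genes, was lower at -5.51 ± 0.36.

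Ganglioside and sphingolipid genes counted 18 higher and 10 lower of 40 under the labels and 14 and 14 in the exchanged comparison. SPHK1, a sphingosine kinase, was higher by 3.67 ± 0.42. Iron handling genes counted 8 higher and 14 lower of 31 (11 and 17 exchanged), and FTH1, the ferritin heavy chain, was higher by 0.88 ± 0.08.

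Cholesterol genes counted 13 higher and 6 lower of 35 (15 and 9 exchanged). DHCR7, the last enzyme of the pathway, had 0.74, 0.74 and 0.54 in IGR37 and 5.74, 5.81 and 5.63 in 501mel, a difference of -5.05 ± 0.25.

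Stress pathway genes were called in both directions. ATF4, the translation-controlled factor of the amino acid response, had 7.54, 7.44 and 7.76 in IGR37 and 8.78, 8.58 and 8.70 in 501mel, a difference of -1.11 ± 0.14 (exchanged -0.54). Of 49 PERK-ATF4 genes, 13 were higher and 18 lower (14 and 18 exchanged), 63.3% called against 60.8% of all genes. PSAT1, a serine synthesis enzyme, was higher by 1.77 ± 0.11, and SLC7A11, the cystine importer, was lower at -2.07 ± 0.15 with an exchanged difference of -0.90. Genes of the IRE1 and ATF6 branches counted 23 higher and 7 lower of 46 under the labels and 14 and 12 in the exchanged comparison.

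NRF2 and oxidative stress genes counted 32 higher and 15 lower of 62 (29 and 18 exchanged). NQO1, the quinone reductase, had 10.64, 10.62 and 10.62 in IGR37 and 8.65, 8.50 and 8.48 in 501mel, a difference of 2.08 ± 0.07. MT1F, a metallothionein, had 128 reads in IGR37 and 1 in 501mel, and ALDH2, mitochondrial aldehyde dehydrogenase, had 2 and 408. Hypoxia and glycolysis genes counted 25 higher and 15 lower of 51 (19 and 16 exchanged). SLC16A3, the lactate exporter, was higher by 5.12 ± 0.41, while ADM, adrenomedullin, was lower at -5.20 ± 0.44 and the glucose transporter SLC2A1 at -1.52 ± 0.11. Cytosolic heat shock genes counted 11 higher and 14 lower of 38 (12 and 16 exchanged, 10 and 8 with spike-in scaling). HSPA1A had 1512 reads in IGR37 and 20 in 501mel, with reads shared uncertainly with its near-identical copy HSPA1B.

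Lysosome and autophagy genes counted 42 higher and 11 lower of 69, with a median of 0.42. The exchanged comparison gave 30 higher, 13 lower and a median of 0.10. Oxidative phosphorylation and TCA cycle genes were more level, at 29 higher and 22 lower of 80 (29 and 22 exchanged, 25 and 8 with spike-in scaling), with none lower by 2-fold. IDH2, mitochondrial isocitrate dehydrogenase, was higher by 1.45 ± 0.10.

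Ribosomal and replication genes were more often lower than higher in IGR37. All 82 cytosolic ribosomal protein genes were measured, and 13 were higher and 49 lower, with a median of -0.43 (18, 43 and -0.30 exchanged, and a median of -0.07 between the siCTR libraries). RPS27A, which encodes a fusion with ubiquitin, had 12.17, 12.26 and 12.34 in IGR37 and 13.50, 13.31 and 13.56 in 501mel, a difference of -1.20 ± 0.15. Many pseudogenes resemble these genes, so single values are uncertain. DNA replication genes counted 7 higher and 26 lower of 55, with a median of -0.21 (12, 21 and -0.18 exchanged, and a median of -0.01 between the siCTR libraries). FEN1, the flap endonuclease, was lower at -1.98 ± 0.19 and MCM3, a subunit of the replicative helicase, at -1.28 ± 0.20, while CCNE1, cyclin E1, was higher by 2.11 ± 0.14.

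Mitotic genes depended on which IGR37 libraries were read. Of 61, 7 were higher and 24 lower under the labels, with a median of -0.23, against 22 higher and 13 lower in the exchanged comparison. CCNA2, cyclin A2, was lower in both, at -1.45 ± 0.13 and an exchanged -1.28. CCNB1, cyclin B1, differed by 0.03 under the labels and was called higher at an exchanged 0.62.

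Arrest and death genes were mixed. CDKN1A, the p21 inhibitor of cyclin-dependent kinases, had 201 reads in IGR37 and 4 in 501mel. BCL2 family and cell death genes counted 19 higher and 10 lower of 43 (13 and 11 exchanged). BCL2A1, an antiapoptotic MITF target, had 6.10, 6.18 and 6.37 in IGR37 and 2.27, 2.29 and 2.12 in 501mel, a difference of 3.99 ± 0.22. Among PI3-kinase, mTOR and RAS genes, 20 were higher and 9 lower of 49 (16 and 12 exchanged), and NRAS was lower at -1.40 ± 0.09. Of 31 melanoma surface and secreted antigens, 16 were higher and 9 lower (15 and 8 exchanged), led by CSPG4, the proteoglycan NG2, which was higher by 6.40 ± 0.26.

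**Figure D4:**
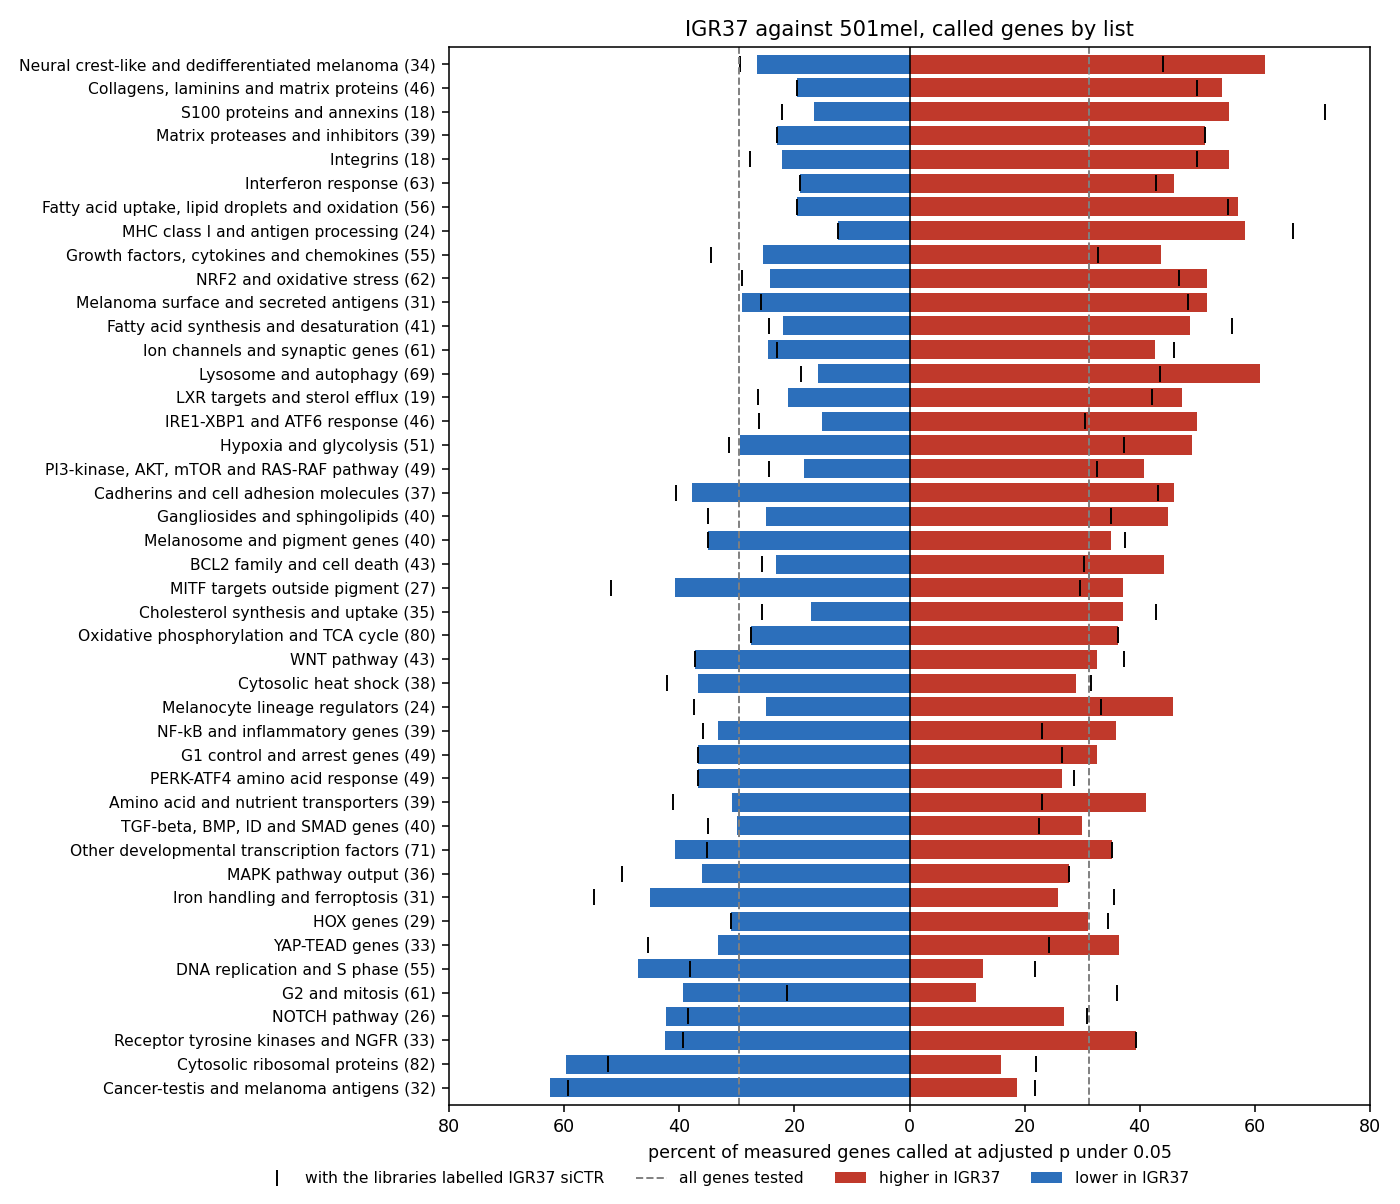
Percent of the measured genes of each list (number in brackets) called higher (red, to the right) or lower (blue, to the left) in IGR37 than in 501mel, with black ticks for the comparison that uses the libraries labelled IGR37 siCTR and dashed lines at the 31.1% higher and 29.7% lower of all genes. Ribosomal proteins and cancer-testis antigens reach farthest to the left, and the ticks of the mitotic list cross to the other side of the background.

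Genes also differed by chromosome. Of the genes tested, 12582 matched a GENCODE 29 gene. The median difference was 0.53 over 123 genes of chromosome 21, 0.49 over 722 genes of chromosome 3 and 0.43 over 421 genes of chromosome 15, and it was -0.56 over 448 genes of chromosome 4, -0.53 over 647 genes of chromosome 6 and -0.40 over 654 genes of chromosome 12. On chromosome 3, where MITF lies, 386 genes were higher and 105 lower in IGR37, against 56 higher and 230 lower on chromosome 4, where KIT lies. Between the siCTR_1 libraries of the second table the medians were 0.51 for chromosome 3, 0.45 for 15, -0.35 for 4 and -0.56 for 6.

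In windows of 10 Mb with at least 15 genes, the highest median was 1.24, on chromosome 7 from 70 to 80 Mb, where 37 of 49 genes were higher and 1 lower. It held HSPB1, a small heat shock protein gene that was higher by 3.72 ± 0.13, and POR, the cytochrome P450 reductase gene, higher by 2.50 ± 0.15. The window before it had 16 of 23 genes higher and none lower, with a median of 1.11. The lowest median was -1.22, at the end of chromosome 2 from 240 Mb, where 16 of 19 genes were lower and 1 higher. They included ATG4B, an autophagy protease gene, lower at -2.31 ± 0.10, HDLBP, the vigilin gene, at -1.59 ± 0.12, and ING5, a chromatin reader gene, at -1.71 ± 0.17. DNA was not measured, and the part of gene dosage in these medians was not tested.

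**Figure D5:**
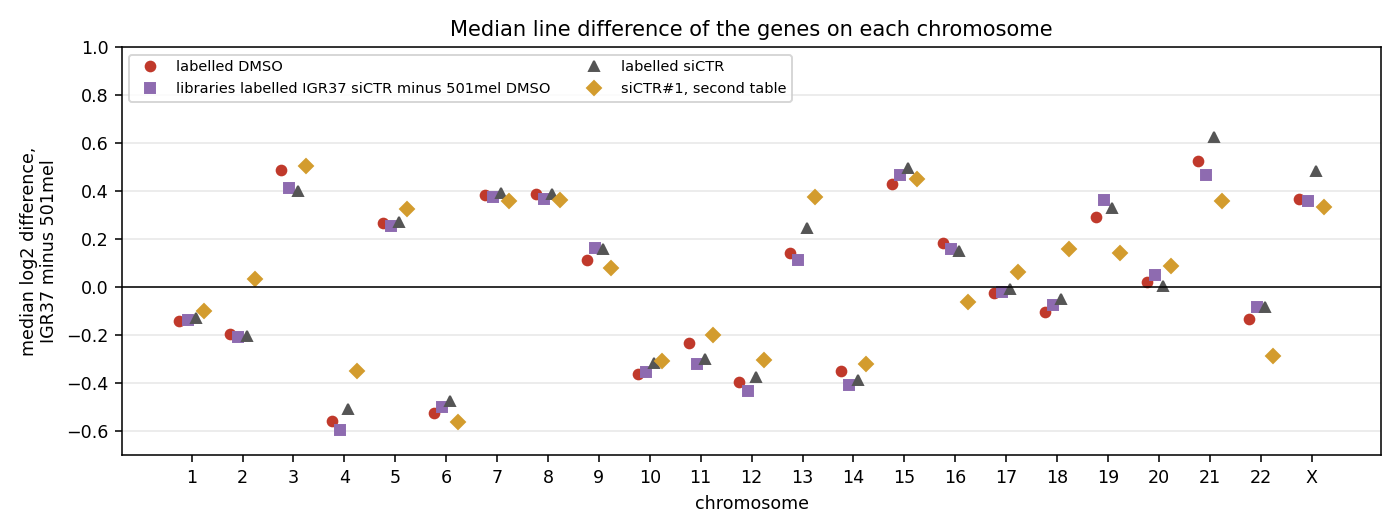
Median log2 difference, IGR37 minus 501mel (vertical axis), over the measured genes of each chromosome (horizontal axis), for the libraries labelled DMSO, the exchanged comparison, the libraries labelled siCTR and the siCTR_1 libraries of the second table. The 4 medians of chromosomes 3, 7, 8 and 15 lie above 0 and those of 4, 6, 10, 12 and 14 below it.

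The libraries labelled with a control siRNA are further measurements of the lines, subject to the doubt on the IGR37 siCTR labels. Between the siCTR libraries, 8363 of 13364 genes (62.6%) were called, 4294 (32.1%) higher and 4069 (30.4%) lower in IGR37. Of the 8126 DMSO calls, 5956 (73.3%) were called in the same direction there and 289 in the opposite one. Between the siCTR_1 libraries, which do not touch the doubted labels and were normalised in another table, 7886 of 13066 genes (60.4%) were called. Of the 7920 DMSO calls in that table, 5600 (70.7%) were called in the same direction and 235 in the opposite one.

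Under siCTR_1, the difference of genes far apart under DMSO was -9.02 for GPR143, -3.99 for KIT, -7.85 for CDKN2A, 6.54 for CD9 and 4.97 for S100A6. MITF was slightly higher in IGR37 there, by 0.21 (adjusted p = 0.00616), as was SCD, by 0.30 (adjusted p = 0.00149), while SOX10, at -0.12, was not called (adjusted p = 0.215).

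The line difference itself was then compared between the control conditions, as the DMSO difference minus the siCTR difference. It was called for 2512 genes (18.8%) under the labels and for 856 genes (6.41%) with the IGR37 labels exchanged. SLC2A3, a glucose transporter, turned round between the conditions, at 2.08 under DMSO and -1.82 under siCTR, and was 0.26 in the exchanged DMSO comparison and 0.71 between the siCTR_1 libraries. HMGA2, a chromatin protein of embryonic tissue, was lower in IGR37 in the 3 comparisons, at -3.81 under DMSO, -6.27 under siCTR and -5.36 under siCTR_1. ATF4 differed at -1.11 under DMSO, -0.04 under siCTR and -0.90 under siCTR_1.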

How the data were processed

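The authors deposited log2 CPM per gene, with a prior count of 0.25, in 2 tables of 24 and 12 libraries from QuantSeq Forward 3′ end sequencing. STAR, edgeR and the hg38 build are named in the submitters' processing notes, without versions, and whether counting used strand is not given in the sources used here. Spike-in rows and the row of a tagged MITF transgene were dropped, which left 13364 genes in the first table, and 3.57% to 4.59% of reads in the 6 DMSO libraries were spike-ins. Whole reads were recovered from the deposited log2 values, with the low counts in the first table within 3.6e-07 of a whole number. High counts were rounded without this check. They set the read counts, floors and 95% counting intervals, which cover counting error only.

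The fit was limma 3.58.1 (R 4.3.3) with a variance trend on the deposited log2 values of all 24 libraries of the first table, 8 groups sharing 1 spread. The line contrast was tested with Benjamini-Hochberg adjustment over all genes, after a check on simulated data. The siCTR_1 libraries were fitted in their own table. Gene positions came from GENCODE 29 and promoters from RefSeq. The members and gene lists were chosen with earlier results of these data known. Genes named were the 15 largest called differences each way that did not overlap, among named protein-coding genes. Their mean log2 value was at least 5 in the higher line. To these came up to 4 called members each way per list, with a mean of at least 3 in the higher line. Also named were 5 each way whose line difference varied between DMSO and siCTR, and MITF, SCD, SOX10, PAX3, ATF4 and AXL. The neighbours of GPR143 and CDKN2A, IRX1, HEATR1, NGFR, SNAI2 and B2M were chosen after their values were seen. Samples were grouped by title. Alternatives covered scaling, pseudocount, filters, the libraries fitted, the replicate block, voom on recovered reads, each library left out and, chosen after seeing the data, the exchanged labels. Python 3.11.15 with pandas 2.3.3 and scipy 1.17.1 made the other tables.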

Additional observations from a re-analysis of the deposited data

Results flagged for a closer look

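The line difference itself differed between the libraries labelled DMSO and siCTR for 2512 genes by a test of that difference (limma, adjusted over 13364 genes). With the labels of the IGR37 DMSO and siCTR libraries exchanged, 856 genes were called. The values that follow are the DMSO line difference minus the siCTR line difference on the log2 scale. The largest were taken among named protein-coding genes with a mean log2 value of at least 5 in the higher line under DMSO. The 5 largest positive were 3.91 for SLC2A3, a glucose transporter, 3.04 for SERPINB1, 2.47 for TMEM45A, 2.46 for HMGA2, a chromatin protein, and 2.44 for LMBR1L. The 5 largest negative were -3.37 for SMIM15, -2.80 for PNLDC1, -2.68 for CDR2L, -2.65 for NAA50 and -2.58 for RPL7L1. For SERPINB1 the 501mel DMSO libraries held 2 reads in all, and for PNLDC1 the IGR37 DMSO libraries held 2, so these values depend on the prior count. MITF had -0.71, SOX10 -0.63 and ATF4 -1.07, so the line differences of these 3 regulators also depended on which control libraries were compared. The part of the labels in these values was not tested.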

How the results depend on the processing

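The count of genes called between the lines under DMSO ranged from 6220 with spike-in scaling to 8449 with only the 6 DMSO libraries, and was 8288 with voom on recovered reads. Without 1 library it was 7457 to 7639, and for siCTR 7780 to 7909, for siCTR_1 7106 to 7291 and for the difference between DMSO and siCTR 2049 to 2322. Exchanging the IGR37 DMSO and siCTR labels lowered the last count to 856, against 2512, and the other counts stayed within 1.5 times their value under the alternatives run. Of 167 named genes, 158 were called. Of these, 152 kept call and direction in every alternative listed beforehand that still tested them, and 153 with the labels exchanged. The filter at a log2 value above 2 left 165 of the named genes, with 157 of the calls. Same-numbered replicates did not deviate together (r from -0.21 to 0.05), so the numbers were not taken as pairs. With the replicate number as a block, 8258 genes were called under DMSO, 8489 under siCTR, 7810 under siCTR_1 and 2680 for the difference, and no named gene changed its call.

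In the alternatives listed beforehand the sign turned only for differences near 0. CDKN2B gave -0.041 with quantile normalisation, -0.011 with median centring and -0.077 to 0.19 without 1 library. CCNB1 gave -0.028 with median centring and -0.031 to 0.089 without 1 library. TYRP1 gave 0.0059 with quantile normalisation, and SCD5 0.0024 with spike-in scaling and -0.15 to 0.0046 without 1 library. With the labels exchanged the values were -2.04 for CDKN2B, 0.059 for HEATR1, 0.18 for MITF, 0.098 for PMEL, 0.23 for SCD5, 0.11 for SOX10, 0.27 for TYRP1 and -0.28 for WWTR1, and the cause was not tested. The median of all genes was 0.017 as deposited, -0.04 with median centring or quantile normalisation and 0.09 on spike-ins. The edgeR and DESeq2 tests were not run, since the deposited unit is log2, and the lower filter removed no gene. Depth limits genes with a few reads, whose fitted differences depend on the prior count.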
